A study of Mus musculus with 8 samples.

Results

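The autosomal genome was laid out in windows of 100 kb to describe DNA methylation on a large scale in resting B cells and naive CD4+ T cells of the mouse spleen. Chromosomes 1 to 19 held 24618 such windows, and 23821 of them were kept because they had at least 200 CpGs that every library listed. The remaining 797 windows had fewer listed CpGs and were left out. The 16 kept windows nearest the limit, with 203 to 216 CpGs, had median levels between 82.3 and 84.1% over the libraries, and the 19 windows just outside it, with 181 to 196 CpGs, had medians between 81.8 and 83.2%. Each window was measured over all its CpGs and again without CpGs within 2 kb of a gene start, which left at least 100 CpGs in 23812 windows and fewer in 9. A kept window held a median of 691 CpGs (605 without those near gene starts).

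Whole genome oxidative bisulfite sequencing (WGoxBS), which reads 5-methylcytosine as C and converts other cytosines to T, was applied to cells of inbred C57BL/6J mice aged 6 to 8 weeks that carried no transgene according to the labels. Resting B cells were sorted as CD43- and naive T cells as CD4+ CD62Lhi CD44lo CD25-, and the study's methods describe cells pooled from several mice. Crossing cell type with sex gave 4 groups, with 2 labelled samples in each of them. The 2 labels of a group point to a single deposited file, so a group counted as 1 library and had no standard deviation. Where 4 values are given in a row below, females come first (B, then T) and males after them (B, then T). Reads over CpGs numbered from 280919817 in the male B library to 354634149 in the female B library, and an autosomal CpG had a median of 14 to 17 reads. A window of the kept set rested on a median of 9793 to 11827 reads per library, and the 95% Wilson interval of its level had a median width of 1.29 to 1.41 percentage points (points below). These intervals cover counting error only. The cell type labels were checked on promoters (1 kb to each side of the start): all 6 B cell marker promoters were lower in B cells, by 29.4 to 81.5 points, and all 8 T cell marker promoters were lower in T cells, by 46.8 to 92.1 points.

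In mammalian cells most CpGs outside gene starts carry 5-methylcytosine, while CpG islands, the CpG-rich stretches that span many gene starts, are kept free of it. Over large scales some cells depart from this pattern. Partially methylated domains are long, gene-poor stretches in which CpGs hold disordered intermediate methylation, and they are known from cultured cells, placenta, tumours and cells with a long history of division. Active enhancers and the gene bodies of cell identity genes can also lose methylation over many kilobases.

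Stretches of 200 bases show what the extremes of the landscape look like in sequence. Each is on the plus strand of GRCm38 and lies beyond 2 kb of gene starts, outside exons and outside masked repeats. Capitals mark CpGs. The first is from the window with the lowest level, at the Hoxc cluster (chr15:102942951-102943150, in no protein-coding gene), the second from the window with the highest level (chr15:8157051-8157250, in an intron of Nup155) and the third from the window with the largest excess in T cells (chr6:120644451-120644650, upstream of Cecr2, in no protein-coding gene). Windows were ranked without CpGs within 2 kb of gene starts, and each stretch holds the most CpGs of any such stretch in its window. The other 2 are from the window with the largest excess in B cells, at Lef1, first its CpG-densest stretch (chr3:131106101-131106300, 4171 bases from the start of Lef1) and then the stretch chosen after its values were seen for the largest B minus T among those with at least 8 CpGs (chr3:131125951-131126150, in an intron of Lef1).
Hoxc stretch: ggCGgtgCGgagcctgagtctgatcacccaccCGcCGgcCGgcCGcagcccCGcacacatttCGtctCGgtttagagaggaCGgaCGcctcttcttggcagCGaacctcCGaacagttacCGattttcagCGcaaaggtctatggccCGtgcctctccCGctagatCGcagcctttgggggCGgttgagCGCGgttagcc
Nup155 stretch: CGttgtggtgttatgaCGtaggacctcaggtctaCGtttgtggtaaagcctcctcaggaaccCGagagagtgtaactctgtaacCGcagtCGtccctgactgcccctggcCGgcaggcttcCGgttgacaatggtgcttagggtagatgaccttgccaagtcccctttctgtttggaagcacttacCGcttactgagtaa
Cecr2 stretch: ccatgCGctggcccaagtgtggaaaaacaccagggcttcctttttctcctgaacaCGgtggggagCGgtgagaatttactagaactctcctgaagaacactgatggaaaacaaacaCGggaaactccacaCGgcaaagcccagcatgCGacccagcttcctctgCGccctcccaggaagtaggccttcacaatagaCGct
Lef1 dense stretch: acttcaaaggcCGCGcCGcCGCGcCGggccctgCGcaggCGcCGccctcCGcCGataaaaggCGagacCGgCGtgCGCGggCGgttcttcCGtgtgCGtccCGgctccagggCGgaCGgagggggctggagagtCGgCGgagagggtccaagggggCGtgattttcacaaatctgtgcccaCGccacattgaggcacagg
Lef1 intron stretch: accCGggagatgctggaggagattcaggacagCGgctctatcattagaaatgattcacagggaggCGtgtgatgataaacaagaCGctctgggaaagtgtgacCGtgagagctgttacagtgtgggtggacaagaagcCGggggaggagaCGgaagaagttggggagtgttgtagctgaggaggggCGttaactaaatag

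The Hoxc stretch, with 21 CpGs, was methylated in 2.12 to 4.93% of reads over the libraries. The Nup155 stretch, with 9 CpGs, was methylated in 95.3 to 97.9% of reads. The Cecr2 stretch, with 8 CpGs, was methylated in 31.0% (Wilson interval 24.8 to 38.0) and 31.1% (23.1 to 40.5) of B cell reads of females and males, against 89.0% (82.8 to 93.1) and 81.5% (74.7 to 86.8) of T cell reads. The CpG-densest stretch of the Lef1 window, with 26 CpGs, had no methylated read in any library. Its counts, the smallest of which was 0 of 282 reads in male B cells and allows a share of up to 1.06%, thus placed the difference of that window elsewhere. The intron stretch, with 8 CpGs, was methylated in 94.7 and 99.1% of reads in female and male B cells and in 2.84 and 4.20% in female and male T cells.

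The landscape was high and even. With all CpGs, the median window level was 85.8, 85.4, 85.8 and 85.1%. The distribution had a long lower tail, with 2477, 3341, 2004 and 3156 windows under 70%. Without CpGs near gene starts the medians were 87.5, 86.9, 87.4 and 86.6%, and 448, 712, 391 and 701 windows were under 70%. The levels between the 25th and the 75th percentile then ran from 85.2 to 89.8% in female B cells and from 84.2 to 88.7% in male T cells. Between 88.4 and 90.9% of windows lay between 80 and 95% in each library. The lower tail was thus smaller without CpGs near gene starts, and T cells had more low windows than B cells in both sexes.

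**Figure D1:**
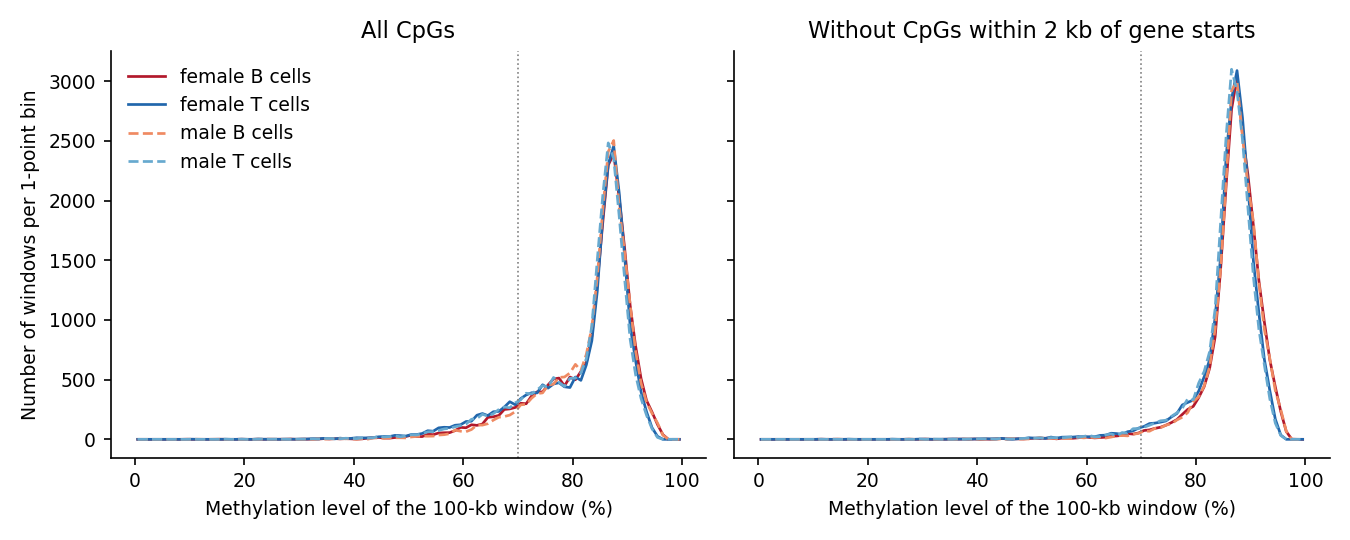
Number of 100-kb windows in each 1-point bin of methylation level, for the 4 libraries, with all CpGs (left) and without CpGs within 2 kb of gene starts (right). The dotted line marks 70%; the lower tail on the left holds 2004 to 3341 windows per library under that line and shrinks to 391 to 712 on the right.

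Libraries of the same cell type were close to each other. Without CpGs near gene starts, Pearson's r across windows was 0.991 between the B cell libraries and 0.993 between the T cell libraries, and 0.912 and 0.908 between B and T cells of females and males. The 4 levels of a window spanned a median of 1.44 points and lay within 2 points of each other in 16238 windows (68.2%). These correlations are across windows that share libraries and are given as a description.

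The named extremes of the landscape differed in the genes they held. The lowest window, chr15:102900001-103000000, covered 8 genes of the Hoxc cluster, which encodes homeodomain factors that pattern the body axis. Beyond 2 kb of gene starts its level was 11.9% (Wilson interval 11.4 to 12.4), 11.9% (11.4 to 12.5), 13.5% (12.9 to 14.1) and 13.0% (12.5 to 13.6). The libraries did not separate by cell type there. The window at the Hoxa cluster (chr6:52200001-52300000) had levels of 27.8, 29.8, 27.8 and 29.5%. Zic1 and Zic4, transcription factors of the nervous system (chr9:91300001-91400000), shared a window at 30.5, 31.1, 31.7 and 29.95%. The window of Nr2f2, an orphan nuclear receptor of developing tissues (chr7:70300001-70400000), was at 31.0, 30.6, 34.4 and 32.1%. These 4 are loci of developmental regulators, and none was called between B and T cells by the rule described below. The Hoxa window was at -1.88 points (adjusted p = 0.0141 by edgeR), short of the 5 points that a call requires, and at 1.80 points when 5 kb around gene starts were left out, so its direction depended on the exclusion. The second lowest window held the predicted genes Gm21188 and Gm36079 (chr13:120000001-120100000, 14.9, 16.2, 14.7 and 16.2%), which sit among other predicted gene models. Whether reads there were shared between similar copies was not tested.

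Without CpGs near gene starts, Nup155, a nuclear pore protein, and Cplane1, a ciliary protein, shared the highest window (chr15:8100001-8200000) at 96.7, 96.0, 96.8 and 95.9%. It was followed by windows inside Diaph3, an actin-organising formin (95.9 to 96.8% over the libraries), Birc6, a ubiquitin ligase (95.2 to 96.98%), Myo9a, an unconventional myosin (95.3 to 96.8%), and Htt, the huntingtin gene (94.9 to 96.9%). In all 5 both B cell libraries were above both T cell libraries, by a mean of 0.62 to 1.78 points. None of these differences reached the 5 points required for a call. With all CpGs the Nup155 window had a mean level of 80.1%.

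The level of a window fell with the number of gene starts in it. With all CpGs, the 13865 windows without a protein-coding gene start had a median of 87.5% in female B cells and 87.2% in female T cells. The 5030 windows with 1 start had medians of 79.4 and 77.4%, the 1791 with 3 or 4 starts 73.5 and 71.3%, and the 130 with at least 8 starts 61.1 and 58.1%. Male libraries gave the same order, from 87.5 to 62.5% in B cells and from 86.9 to 59.2% in T cells. Across windows, Spearman's rho between the mean level and the number of starts was -0.65, and that between the mean level and the number of CpGs was -0.47.

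Most of this slope disappeared with the CpGs near gene starts. Without them, the medians of female B cells ran from 87.6% in windows without a start to 85.0% with at least 8, and rho was -0.14. For CpG number it was -0.15. Within windows of 600 to under 800 CpGs, those without a gene start had a median of 88.0% and those with 1 start 78.95% when all CpGs counted. The same windows were at 88.1 and 88.2% once the CpGs near starts were removed. At the upper end the level still fell with CpG number. The 723 windows with 1500 to under 2000 CpGs had a median mean level of 81.1% and the 34 windows with at least 2000 had 74.0%, both without CpGs near starts, against 88.2% for windows with 600 to under 800. Among windows without a gene start the fall was smaller, from 88.1% (600 to under 800 CpGs) to 84.9% in 72 windows (1500 to under 2000), and only 1 such window had at least 2000. Windows poor in CpGs were not the highest either, at 86.4% for 200 to under 400 CpGs. GC content (rho -0.23 with the level) and depth (rho -0.18 with reads per CpG) moved with the level too, and the part of each was not tested.

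**Figure D2:**
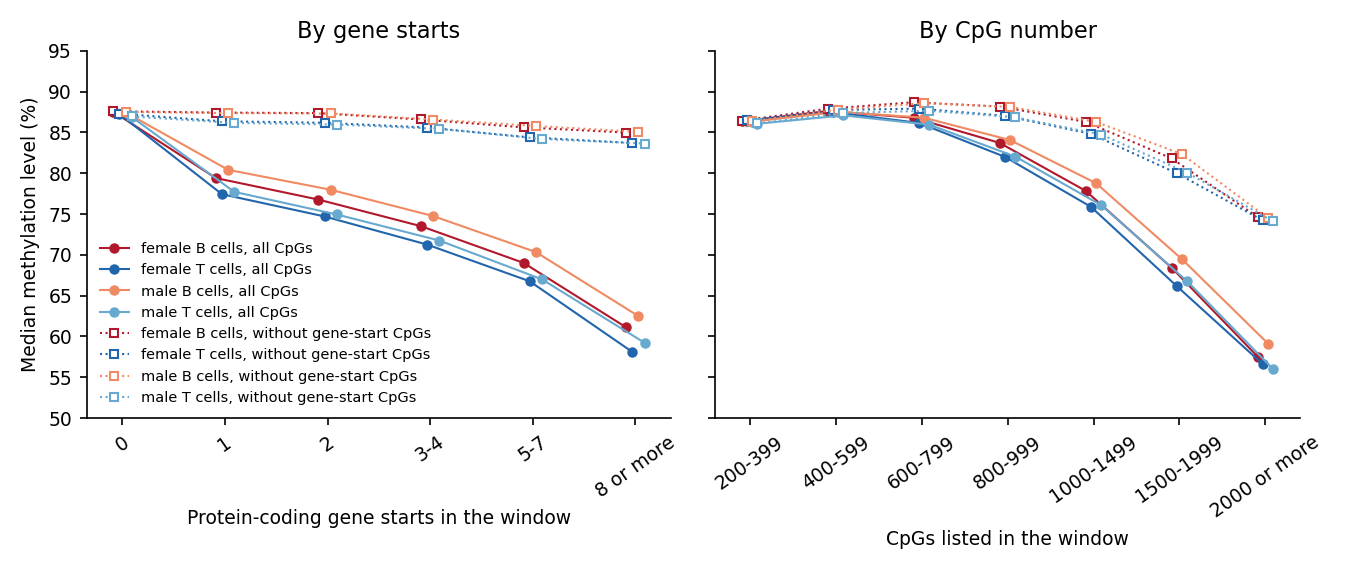
Median methylation level (%) of 100-kb windows by the number of protein-coding gene starts (left) and of listed CpGs (right), one line per library, with all CpGs (filled, solid) or without CpGs within 2 kb of gene starts (open, dotted); the axis starts at 50%. With all CpGs the medians fall to between 58.1 and 62.5% at 8 or more starts, and without the CpGs near starts they stay between 83.6 and 85.1%.

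Gene families with clustered members spread over most of the landscape. A window was assigned to a family when it held at least 2 gene starts with the family's symbol prefix, and levels are without CpGs near starts. The 7 Hox windows had a median of 41.6% (12.6 to 80.5%). Olfactory receptor genes (Olfr) filled 284 windows with a median of 86.7%, near the 87.1% of all windows. The 71 windows of zinc finger genes (Zfp) were at 88.8%, and the 8 of prolactin genes (Prl), which have placental members, at 89.3%. Clustered protocadherins (Pcdh), adhesion proteins of neurons, had a median of 80.4% in 10 windows. These stood out by their CpGs, of which 36.4% lay between 20 and 80% methylation against 17.7% in the median window. Such shares, here and below, count CpGs with at least 10 reads in a library.

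B cells were more methylated than T cells over most of the genome, by a small amount. With all CpGs, B minus T had a median of 0.63 points in females and 0.97 points in males and was above 0 in 70.2 and 78.9% of windows. Without CpGs near gene starts the medians were 0.56 and 0.78 points. The shift was not even along the genome. In windows with no protein-coding gene start within about 500 kb these medians were -0.004 points in females and 0.32 points in males. In windows with 1000 to under 1500 CpGs they were 1.22 and 1.41 points. Reads of mitochondrial CpGs were called methylated in 0.271, 0.0733, 0.727 and 0.0709% of cases, higher in both B cell libraries. Whether these reads escaped conversion or have another source was not tested, nor was their part in the small difference between B and T cells.

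Differences of at least 5 points set single windows apart from this shift. Methylated and unmethylated reads of each window were tested with edgeR's quasi-likelihood test over the 4 libraries, and a window was called at a Benjamini-Hochberg adjusted p under 0.05 together with a mean B minus T of at least 5 points in size. Without CpGs near gene starts, 1325 windows were called (5.56% of those tested). B cells were higher in 1284 of them (5.39%) and T cells in 41 (0.172%). With all CpGs, 1708 windows were called (7.17%), 1674 higher in B cells (7.03%) and 34 higher in T cells (0.143%). In both sets every window that reached 5 points also had an adjusted p under 0.05, so the minimum alone decided these calls. The lists shared 1226 windows, which is 71.8% of the list with all CpGs and 92.5% of the list without those near starts. B minus T shared its sign between the sexes in 75.3% of all windows and in all 1325 called ones, and reached 5 points in both sexes in 1132 of the called ones. The minimum applies to the mean of both sexes and sets no limit on the difference between them. Selection by a large mean by itself makes a shared sign more likely. The called B-higher windows had a median difference of 7.09 points and the T-higher windows of -6.05 points. Without the minimum of 5 points, 9289 windows passed (39.0%, of which 35.5% of all windows higher in B cells and 3.55% higher in T cells), and 7941 with all CpGs (33.3%, with 31.4 and 1.98%). Each fit had 1 residual degree of freedom among the 4 libraries, so the p-values rest on a spread shared across windows.

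**Figure D3:**
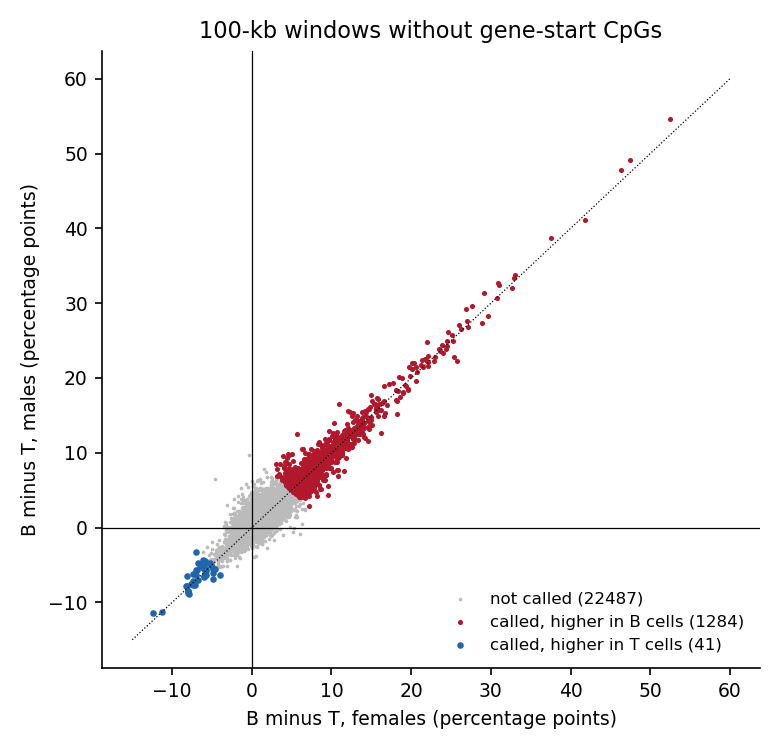
B minus T (percentage points) of each 100-kb window in males (vertical) against females (horizontal), without CpGs within 2 kb of gene starts; red points are the 1284 windows called higher in B cells, blue points the 41 called higher in T cells and grey points windows not called. The arm of B-higher windows reaches 52.5 points in females and 54.6 points in males, while the T-higher arm ends at -12.4 and -11.5 points.

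The 10 windows with the largest excess in B cells had means of B minus T from 31.7 to 53.6 points. Lef1, a transcription factor of T cell development, led the list (chr3:131100001-131200000). Its window was at 81.8% (Wilson interval 81.4 to 82.3) in female B cells and 82.6% (82.1 to 83.2) in male B cells, against 29.3% (28.66 to 29.99) in female T cells and 28.0% (27.3 to 28.7) in male T cells. The mean difference was 53.6 points (adjusted p = 4.1e-35). Satb1, a chromatin organiser abundant in thymocytes (chr17:51800001-51900000), was at 71.9, 24.5, 74.1 and 24.95%, a difference of 48.3 points (adjusted p = 5.6e-32). Bcl11b, a zinc finger factor of T cell commitment, followed with a window inside the gene (chr12:107900001-108000000) at 80.2, 33.9, 80.1 and 32.3%, a difference of 47.1 points. In each of these windows both T cell libraries lay far below both B cell libraries, with no overlap.

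Further windows of the list followed with smaller differences. Ets1, an ETS-family factor of lymphocytes (chr9:32700001-32800000), was at 82.5, 40.7, 81.6 and 40.5%. Ptprc, which encodes the leukocyte phosphatase CD45 (chr1:138100001-138200000), was at 37.5 and 36.5% in T cells, which was 37.5 and 38.7 points below B cells of the same sex. Inpp4b, a phosphoinositide phosphatase (chr8:81700001-81800000), was at 86.7, 53.7, 85.7 and 51.9%. Tcf7, which encodes the partner factor TCF1, shared a window with Skp1a and Olfr1371 (chr11:52200001-52300000). That window was at 47.4 and 46.7% in T cells, 32.6 and 32.0 points below B cells of the same sex. Cd247, the zeta chain of the T cell receptor complex, shared a window with Pou2f1 (chr1:165800001-165900000). The start of neither gene lay in it, and it differed by 31.8 points. Another window (chr15:60100001-60200000) held no protein-coding gene and only the model Gm2682, and stood at 90.3, 57.4, 89.9 and 56.5%. The adjusted p-values of these 6 windows ran from 4.8e-32 to 1.8e-27.

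Windows higher in T cells were fewer and their differences smaller. Cecr2, a subunit of a chromatin remodelling complex (chr6:120600001-120700000), had the largest, at 76.7, 89.1, 77.5 and 89.0% (-11.9 points, adjusted p = 1.5e-20). Irf8, a transcription factor of B cells and myeloid cells (chr8:120700001-120800000), followed at 68.8, 79.98, 69.0 and 80.4% (-11.3 points, adjusted p = 1.7e-18). B minus T of the other 8 windows was between -8.39 and -7.53 points, with adjusted p-values from 9.6e-20 to 1.6e-13. They included the window of Blnk, an adaptor of the B cell receptor, with Zfp518a (81.3, 89.6, 81.9 and 89.8%). Others were the window with Cd79b, a chain of that receptor, beside Scn4a and Icam2 (76.0, 83.98, 75.9 and 84.3%), and that of Syk, its proximal kinase, with Diras2 (73.2, 80.6, 72.5 and 80.2%). Adjacent windows over Zcchc7, a zinc finger gene upstream of Pax5, were at 80.8, 88.8, 80.5 and 89.0% and at 78.8, 86.4, 78.9 and 86.5%. The latter window also overlapped Grhpr and Zbtb5. Qrsl1, an enzyme of mitochondrial translation, was in another (84.1, 92.0, 82.9 and 91.8%). Windows at chr5:146600001-146700000, with Gm34333, and chr12:80000001-80100000, with Gm36660 and Gm47752, held no protein-coding gene. In all 10 windows both B cell libraries lay below both T cell libraries.

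Of these, 2 calls were lost with a wider exclusion of 5 kb around gene starts, those of the Cd79b window (-4.79 points) and of the Blnk window (-4.005 points).

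Loci of lineage genes were read from the window that holds each gene's start, from lists of genes known for their role in either lineage. The lists were chosen with earlier results of these data known. The shares here and in the next paragraph thus describe these loci and do not test whether lineage genes differ more often. Of 23 windows with 24 T lineage genes, 19 were called higher in B cells and none higher in T cells, against 8.88 and 0.271% of all windows with a gene start. Their median B minus T was 12.8 points, where that of windows with a gene start was 1.11 points. Cd5, an inhibitory co-receptor (84.9, 58.9, 85.4 and 58.3%), Cd28, the costimulatory receptor (86.7, 60.5, 87.5 and 60.9%), and Prkcq, a kinase of T cell receptor signalling (90.4, 65.9, 89.8 and 65.6%), each differed by over 20 points. The 4 windows that were not called were those of Cd3e (3.94 points), Bcl11b (1.70), Zap70 (1.06) and Inpp4b (0.20). With all CpGs those of Cd3e (7.70 points) and Zap70 (5.18 points) were called as well. For Bcl11b and Inpp4b the difference lay in other windows of the same gene, named above.

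The B lineage windows did not mirror this. Of 20 windows, 3 were called higher in T cells (Cd79b, Blnk and Bank1, a B cell scaffold protein) and 2 higher in B cells, against 0.271 and 8.88% of all windows with a gene start. The median B minus T of the 20 windows was -0.67 points, and -1.88 points with all CpGs. None of the 3 T-higher calls held when 5 kb around gene starts were excluded. Bank1 stood at 86.9, 90.8, 85.7 and 92.1% (-5.18 points), and its call was also lost when either male library was left out. The B-higher windows were those of Bach2, a repressor expressed in naive cells of both lineages (79.2, 57.1, 78.9 and 57.3%, 21.9 points), and Cd74, the invariant chain of MHC class II (85.3, 79.4, 84.9 and 78.5%, 6.16 points). With all CpGs the Cd74 window had 4.89 points and was not called, while that of Spib, an ETS factor of B cells, was called higher in T cells at -5.45 points. The window with the start of Pax5, the factor of B cell identity, differed by 1.06 points with overlapping libraries. Another window inside that gene, centred 160.5 kb downstream of its start, was called higher in B cells (83.8, 77.9, 84.8 and 77.8%, 6.42 points).

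Neighbouring windows showed how far the differences extended. The 1284 B-higher windows formed 935 runs of adjacent windows, of which 679 were single windows and 64 had at least 3. The 41 T-higher windows formed 39 runs, 37 of them single and none longer than 200 kb. The longest run of B-higher windows spanned 800 kb around Satb1 (chr17:51700001-52500000), with a mean level of 89.2, 67.3, 89.4 and 67.6% over its 8 windows. The window that holds the Satb1 start, with its centre 16.7 kb upstream of it, was at 48.3 points. From there the difference continued upstream at 11.5, 18.0, 23.7, 17.6, 13.1 and 12.2 points in the next 6 windows. On the other side it was 30.2 points in the window over the rest of the gene and 0.42 points in the one beyond. The upstream side of this run held no other protein-coding gene.

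Other long runs were shallower. A run of 700 kb on chromosome 15 (chr15:80500001-81200000) with Grap2, an adaptor of T cell receptor signalling, Tnrc6b, a factor of miRNA silencing, and Mrtfa, a coactivator of serum response factor, was at 84.9, 73.5, 85.1 and 72.6%. Inpp4b held a run of 500 kb (91.4, 77.1, 91.0 and 76.7%), as did Foxp1, a factor of quiescence in naive lymphocytes (81.0, 71.2, 81.5 and 71.3%), and Sv2b with Akap13, a synaptic vesicle protein and a kinase anchor (82.4, 73.8, 82.1 and 74.5%). A run of the same length with Pabpc1, a poly(A)-binding protein, and Ywhaz, a 14-3-3 adaptor, had a mean of 80.3% in B cells and 74.0% in T cells. A 400-kb run, named after its values were seen, covered Cd28, Ctla4 and Icos, the linked receptors of costimulation and its inhibition (86.5, 74.3, 86.9 and 75.1%).

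Called windows were divided into pieces of 10 kb, a view added after the data were seen. Among 51 windows with B minus T of at least 20 points, the median window had 8 pieces at 5 points or more. The Lef1, Satb1, Bcl11b and Ets1 windows each had 9 of 10 such pieces, with a largest piece of 82.0, 92.1, 80.2 and 76.9 points. Over all B-higher windows the median was 5 of 10 pieces, where a larger window difference by itself places more pieces past 5 points. The T-higher windows had a median of 4 of 10 pieces at -5 points or below, and in the Cd79b window the most extreme piece reached -54.4 points where the window as a whole had -8.22.

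**Figure D4:**
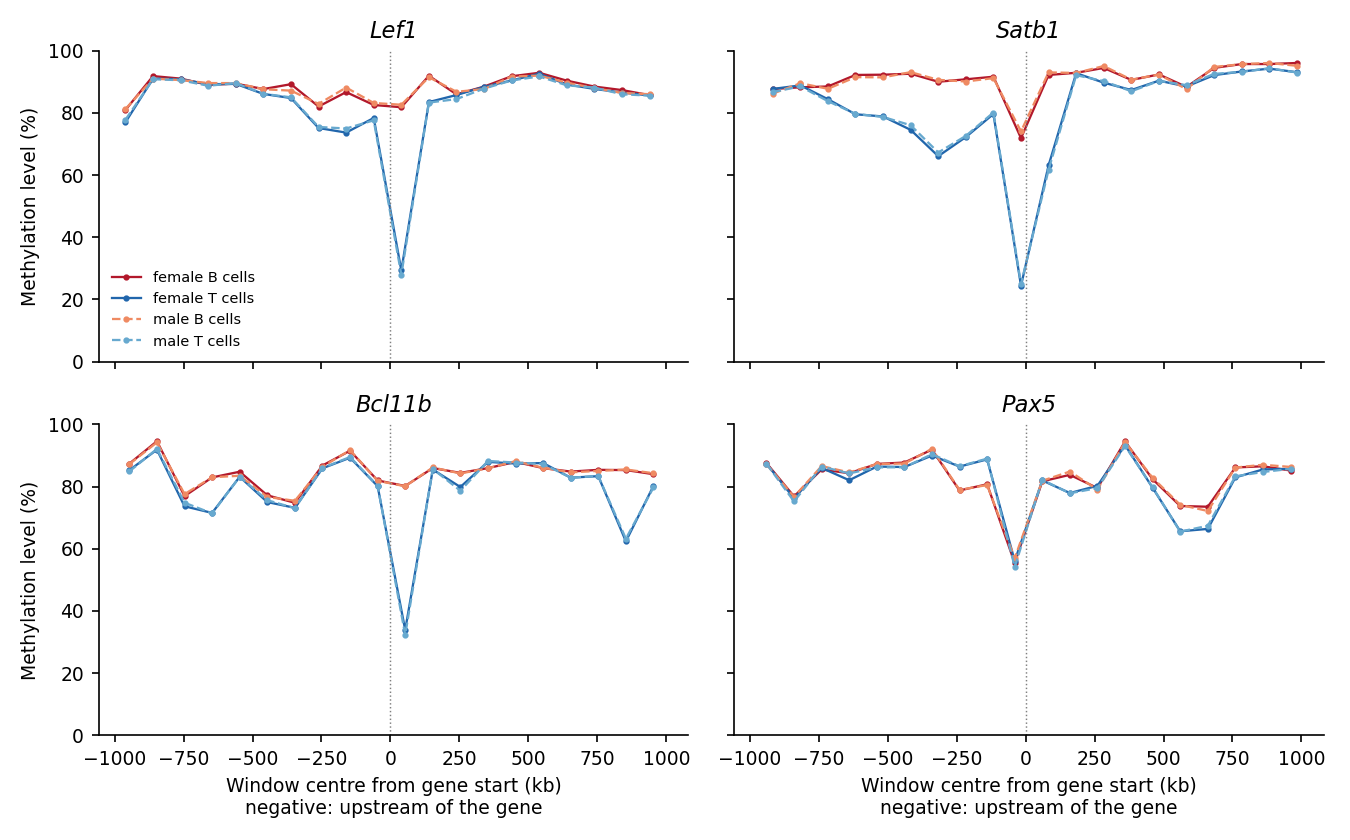
Methylation level (%) of 100-kb windows without CpGs near gene starts, against the distance of the window's centre from the start of Lef1, Satb1, Bcl11b and Pax5 (kb, negative upstream), one line per library. T cells (blue) fall to 28.0 to 29.3% at Lef1, 24.5 to 24.95% at Satb1 and 32.3 to 33.9% inside Bcl11b. At Pax5 both cell types share a minimum of 54.2 to 56.97% while B cells (red) are lower in the 2 upstream windows over Zcchc7. B cells are higher in called windows centred 160.5, 560.5 and 660.5 kb downstream of the Pax5 start, the first of them inside the gene.

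Called windows were more common where genes were. The share called higher in B cells was 0.198% among 2520 windows with no protein-coding gene start within about 500 kb, 2.57% with 1 to 4 starts, 6.70% with 5 to 9, 8.66% with 10 to 19 and 8.60% with at least 20, against 5.39% of all windows. By CpG number it ran from 0.526% (200 to under 400 CpGs) to 10.3% (1000 to under 1500 CpGs), and 1 of the 34 windows with at least 2000 CpGs was called (2.94%). Windows with more CpGs also carry more reads and so a smaller counting error, and the part of that was not tested. Between chromosomes, the share called in either direction was lowest on chromosome 8 (3.34%) and highest on chromosome 11 (8.52%), where the median window held 759 and 881 CpGs. The next highest share, on chromosome 15 (8.03%), came with a lower median of 657 CpGs. Of the families, Gimap genes, GTPases of lymphocyte survival, had both of their windows called higher in B cells, by 10.5 and 10.7 points, and none of the 284 olfactory receptor windows was called.

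Few windows differed between the sexes. With all CpGs no window was called between females and males by edgeR's test. Its unadjusted p was under 0.05 in 2278 of 23821 windows for sex, and in 483 for the crossed contrast described below. Limma called none between females and males and had 2217 windows at an unadjusted p under 0.05. Without CpGs near gene starts 1 window was called (0.00420%), with Tchh and Tchhl1, structural genes of hair follicles (chr3:93400001-93500000), at 44.5, 41.1, 52.2 and 45.1% (adjusted p = 6.3e-04). Females minus males was -5.87 points there, and -2.32 points without the male B cell library and -4.17 points without the female T cell library, both under the minimum for a call. It was also called between B and T cells, at 5.26 points, but that value was 1.39 points without the male B cell library and 3.24 points without the female T cell library, and the call was lost. Without the minimum of 5 points 18 windows passed between females and males (0.0756%), 17 of them higher in males (0.0714%). By limma 1 window passed without the minimum. The crossed contrast (B minus T in females against that in males), which took the place of sex in the fit and compares single libraries, was called in no window with all CpGs and in 2 without those near starts (0.00840%), or 5 without the minimum (0.0210%), 4 of them with the larger value in males (0.0168%). Limma called none. These calls set single libraries side by side and do not show a difference between the sexes. Zfp800, a zinc finger gene (chr6:28200001-28300000), was at 62.0, 62.3, 72.2 and 62.5%, with a difference of -0.29 points in females and 9.76 points in males. The window of Gm3752 and Gm3755 (chr14:7400001-7500000), which belong to a group of similar gene models, was at 53.7, 58.3, 61.0 and 54.5%.

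Partially methylated domains were looked for by the shape of the CpG levels in a window. A symmetric beta distribution was fitted to the CpGs beyond 2 kb of gene starts, and its parameter alpha is under 1 where CpGs are mostly either methylated or unmethylated and at least 1 where intermediate levels prevail. The median alpha was 0.30 in both B cell libraries and 0.35 in both T cell libraries, and in each library 99% of windows were at or below 0.55. Alpha reached 1 in 3, 1, 1 and 3 of the 23812 windows. None of these windows were adjacent, so no run of at least 3 windows, the definition set for a domain, was present in any library. In windows of 20 kb alpha reached 1 in 51, 104, 51 and 106 of 118395. Runs of these smaller windows were not examined, so shorter domains were not looked for.

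The windows with the highest alpha were scattered single loci. The first held Zdbf2 and Gpr1 (chr1:63200001-63300000), an imprinted locus that is methylated on one parental copy, at 67.7, 68.8, 68.7 and 67.1% with 61.6% of its CpGs between 20 and 80%. It was followed by a window on chromosome 6 with no annotated gene (chr6:114500001-114600000, 64.3, 62.1, 65.9 and 63.3%) and by the Pcdhb protocadherins (70.9, 69.6, 71.4 and 70.7%). The next ones, on chromosomes 16 and 7, had 43.4 and 44.7% of their CpGs between 20 and 80% and an alpha of at least 0.75 and 0.70. None of these 5 was called between B and T cells.

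Most windows low in every library held more unmethylated than intermediate CpGs. Of the 360 windows under 70% in all 4 libraries, 247 had more CpGs under 20% methylated than between 20 and 80%. Over the 360 windows, a median of 27.2% of CpGs were under 20% methylated, against 1.32% in all windows. The share of CpGs between 20 and 80% was 21.8%, close to the 17.7% of all windows. These windows were rich in CpGs, with a median of 1248, and held a median of 1 gene start. Under 70% in both T cell libraries and in neither B cell library were 240 windows, and 13 were so in the reverse direction. In the 240 windows the order was the other way in the cell type that was low, with medians of 20.7 and 20.4% of CpGs under 20% methylated and 24.996 and 25.1% between 20 and 80% in female and male T cells. In the 13 windows the B cell libraries had 20.5 and 18.8% under 20% methylated and 22.0 and 23.8% between 20 and 80%. Adjacent low windows were rare: runs of at least 3 numbered 7, 12, 6 and 13 in the 4 libraries and the longest spanned 400 kb.

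Gene deserts, where such domains usually lie, had nearly the same median level as all windows. The 2520 windows with no gene start within about 500 kb had a median of 87.0, 87.0, 87.0 and 86.7% in the 4 libraries and an interquartile range of 2.55 points over windows, narrower than the 4.40 points of all windows. The lowest of them had a mean level of 69.4%. Their CpGs were less uniform, with 23.2% between 20 and 80% and a median alpha of 0.40. Isolated CpGs flanked by A or T on both sides with no other CpG within 35 bases, the context known to lose methylation first with cell division, were examined after the data were seen. Their median level in deserts was 78.04, 78.04, 78.15 and 77.67%, against 81.2, 80.1, 81.25 and 79.7% in all windows. The deserts were thus lower by 2.05 to 3.16 points in each library, on the same side in B and T cells, with no test.

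The landscape was also short in reach. Without CpGs near gene starts, the mean level of windows 100 kb apart had Pearson's r of 0.28, falling to 0.10 at 1 Mb and 0.04 at 5 Mb. B minus T had 0.35 at 100 kb and 0.04 at 1 Mb. The number of CpGs, for comparison, had 0.84, 0.50 and 0.15 at 100 kb, 1 Mb and 5 Mb. The level of isolated CpGs reached further than the level of all, with 0.52 at 100 kb and 0.17 at 1 Mb. In windows of 1 Mb, 32 of 2397 were called between B and T cells, all higher in B cells. The last 5 Mb of chromosomes had a median level of 86.2% against 87.1% elsewhere, in windows with a median of 861 and 692 CpGs.

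**Figure D5:**
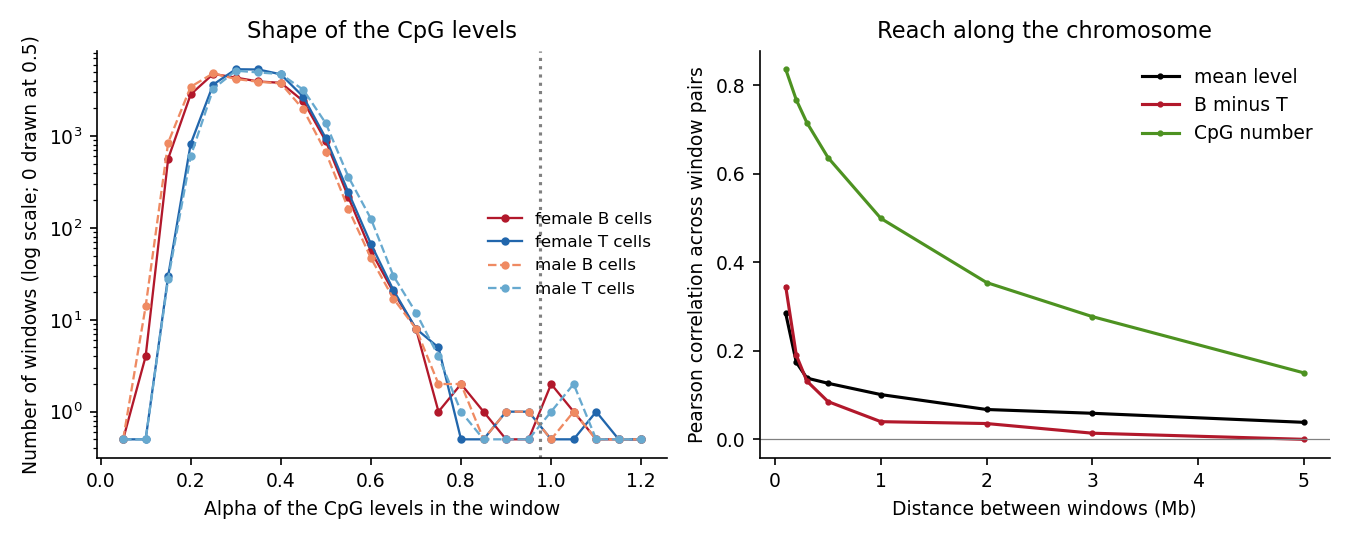
Left, number of windows (log axis, 0 drawn at 0.5) by alpha in each library, where the dotted line separates values of at least 1; right, Pearson correlation across pairs of windows by their distance (Mb) for the mean level, B minus T and the number of CpGs. Only 1 to 3 windows per library lie right of the line, and the correlation of B minus T drops from 0.35 to 0.04 between 100 kb and 1 Mb.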

How the data were processed

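DNA methylation was measured by WGoxBS in 4 libraries. The authors deposited, for each CpG with at least 5 reads, its position, its methylation level as a fraction and its depth as a read count. The submitters' processing notes name Trim Galore, FastQC and Bismark 0.13.1 and the build mm10 (GRCm38). Fractions had been rounded up to 3 decimals, so methylated reads were recovered as whole numbers, and 100% of levels matched. Whether a file joins both samples of its group is not given in the sources used here, so p-values measure only the spread between the libraries.

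Methylated over all reads was computed for 18214466 autosomal CpGs listed in every library, all on a CG of GRCm38, and summed in windows. Gene starts were taken from GENCODE M21. Reads were tested with edgeR 4.0.16 (limma 3.58.1 as an alternative) in R 4.3.3. The model held library terms, a methylation term and the effects of cell type and sex on methylation, with the crossed contrast in place of sex where that was tested, and was checked on simulated data. Alpha was estimated by maximum likelihood between 0.05 and 3 from CpGs with up to 100 reads. Isolated WCGW CpGs, 10-kb pieces, gene starts within 500 kb and the exclusion of exons and masked bases from printed sequences were chosen after seeing the data. The windows named were the 5 lowest and 5 highest, the 10 largest calls in each direction, the 5 longest runs (with ties), the 5 with the highest alpha, and those at the starts of listed B and T lineage genes. Windows called between the sexes were named after their values were seen. The members and lists were chosen with earlier results of these data known. Sequences are from the GRCm38 reference. Some results at lineage genes are not reported here.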

Additional observations from a re-analysis of the deposited data

Results flagged for a closer look

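When CpGs near gene starts were left out, edgeR's test of the crossed contrast (B minus T in females against that in males) called 2 windows. With 1 library per group the contrast compares single libraries, and its p-values rest on a fit without a sex term, so they do not show a difference between the sexes. In the window of Zfp800, B minus T in females minus that in males was -10.1 points (adjusted p = 0.00945). B minus T itself was called there, at 9.83 points, when the female B cell library was left out. In the window of Gm3752 and Gm3755 the contrast was -11.0 points (adjusted p = 0.0332). Limma called neither. The cause was not tested.

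Mitochondrial CpGs entered no comparison between windows. Their reads were called methylated in 0.271% of cases in female B cells and 0.727% in male B cells, against 0.0733% in female T cells and 0.0709% in male T cells. The limit that a count of 0 allows was 0.00185 to 0.00231% in these libraries, so all 4 values were above it. The male B cell library, with the highest value, also had the fewest reads over all CpGs.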

How the results depend on the processing

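Calls between B and T cells depended most on the minimum difference and on window size. Given with all CpGs and then without those near gene starts, no minimum left 7941 and 9289 calls, a minimum of 10 points 331 and 300, and windows of 1 Mb 50 and 32. Leaving out each library gave 1408 to 2330 and 1277 to 1423 calls, and the other alternatives (limma, at least 10 reads per CpG, windows shifted by 50 kb, differences centred on their median, 5 kb or all transcript starts excluded) 1287 to 1712 and 1110 to 1325. Limma gave the same 1708 and 1325 calls as edgeR, because the minimum of 5 points alone decided them. Centring moved the T-higher calls from 34 to 51 and from 41 to 61. Between the sexes, the crossed contrast had 1 call without a minimum, and leaving out CpGs near gene starts, added after the data were seen, gave 1 call between females and males and 2 for the crossed contrast. In 1-Mb windows the median B minus T was 1.13 points (females) and 1.63 points (males), and unweighted CpG levels gave 0.73 points for males. Spearman's rho of the level was -0.63 with CpG number and -0.74 with gene starts in 1-Mb windows, and -0.15 and -0.14 without CpGs near starts. Windows with alpha of at least 1 numbered 2, 2, 0 and 3 with all CpGs, and 51, 104, 51 and 106 of 118395 windows of 20 kb. Windows under 70% numbered 2477, 3341, 2004 and 3156 with all CpGs. The cause of these changes was not tested. No named window changed sign on a call: of 673 values of 75 windows under the alternatives, 657 kept their side of the threshold, 12 lost a call and 4 gained one.

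No paired analysis was possible because the groups share no replicate number in the labels and each has 1 file. With 1 library per group, no spread within a group could be measured. The counting interval of a window (median width 1.29 to 1.41 points) limits smaller differences, and CpGs under 5 reads were not analysed here. Levels of windows with similar gene copies rest on reads that may be shared, which was not tested.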
